A study of Mus musculus with 6 samples.

Results

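Genes that mark leukocytes, endothelial cells and smooth muscle were followed in RNA of sorted tumor cells, as a check of how pure the sort was. They were chosen by name, as the 10 of the 22880 genes in the deposited table called Ptprc, Cd68, Lyz2, Csf1r, Cd74 and H2-Aa (6 leukocyte genes), Pecam1, Cdh5 and Kdr (3 endothelial genes) and Acta2 (1 smooth muscle gene). The cells were MC-38GFP, mouse colon adenocarcinoma cells made to express green fluorescent protein, and they were injected into the cecum wall of C57BL/6J mice whose age is not given in the sources used here. Mock cells (3 libraries) and HIF-1α-KD cells (3 libraries), in which HIF-1α was knocked down, were both transduced with pLKO.1-puro and were not passaged in vivo. Tumors were digested, erythrocytes were lysed, and living cells negative for CD45 and CD31 and positive for the fluorescent protein were sorted. The knock-down was in the tumor cells, so leukocytes and vessels in both groups of tumors came from hosts with intact Hif1a. The sources used here do not say whether a library is the RNA of a single tumor, so p-values measure only the spread between these libraries, which may in part be technical.

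Ptprc encodes CD45, the phosphatase carried by nearly all nucleated cells of the blood lineage, and Pecam1 encodes CD31, the adhesion molecule of endothelial junctions. These are the proteins against which the sort selected, so low values of both genes follow from the design and are a description of what the sort left. The other members were not stained. Cd68, Lyz2 and Csf1r mark macrophages and monocytes, cells that engulf debris and are common in tumors. Cd74 and H2-Aa belong to the machinery by which antigen-presenting cells load peptides on MHC class II, and some other cells switch it on under interferon gamma. Cdh5 and Kdr encode vascular endothelial cadherin and a receptor of vascular endothelial growth factor. Acta2 encodes smooth muscle alpha actin, found in vessel walls, the muscle layer of the gut and activated fibroblasts.

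Libraries held between 19845852 and 30809140 reads on genes. Normalized counts are reads divided by 1 factor per library, and FPKM are reads scaled to the length of the gene and to the total of the library. A group difference is given as a log2 fold change (HIF-1α-KD minus Mock, fitted with limma on log2 of the normalized count plus 1). Hif1a stood at 6914, 5424 and 4945 normalized counts in Mock against 697.3, 3142 and 1928 in HIF-1α-KD libraries, which did not overlap. The epithelial genes that would be looked for in an adenocarcinoma were low. Krt19, Krt8 and Cdh1, the most abundant of 5 keratin and junction genes, had at most 4.82, 4.15 and 1.31 FPKM, all in Mock replicate 3, and Epcam at most 0.719 FPKM. Of the 5, 4 had a mean under 1 FPKM. Of normal cecal epithelium, 8 of 10 genes had a mean under 1 FPKM. The most abundant, Lgals4, had 4.26 FPKM in Mock replicate 3 and between 0.6003 and 1.361 FPKM in the other libraries, and Car1 had between 0.160 and 3.88 FPKM. HIF-1α-KD replicate 3 stood apart from the other libraries in its leukocyte genes, and results that rest on it are given with and without it.

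All 10 markers had reads in all 6 libraries. In descending order of the mean over the 6 libraries, Lyz2 had 107 FPKM (between 54.5 and 295), H2-Aa 64.4 (5.71 to 199) and Cd74 58.5 (6.04 to 178). Cd68 followed with 12.5 FPKM (4.78 to 29.2), Acta2 with 4.08 (1.40 to 7.80), Cdh5 with 4.07 (2.09 to 5.58) and Csf1r with 3.98 (2.16 to 9.81). Last came Ptprc with 1.501 FPKM (0.558 to 3.23), Pecam1 with 0.834 (0.555 to 1.28) and Kdr with 0.0395 (0.00876 to 0.107). Each neighbour in this order overlapped the next over the libraries, except that Kdr lay below Pecam1 without overlap. Among all 22880 genes, of which 12103 had a mean under 1 FPKM, Lyz2 stood at percentile 95.2, Ptprc at 54.8, Pecam1 at 52.3 and Kdr at 39.7. The genes of the 2 proteins stained for the sort were thus low but not at 0, with between 49 and 193 reads of Ptprc and between 29 and 65 reads of Pecam1 per library.

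**Figure D1:**
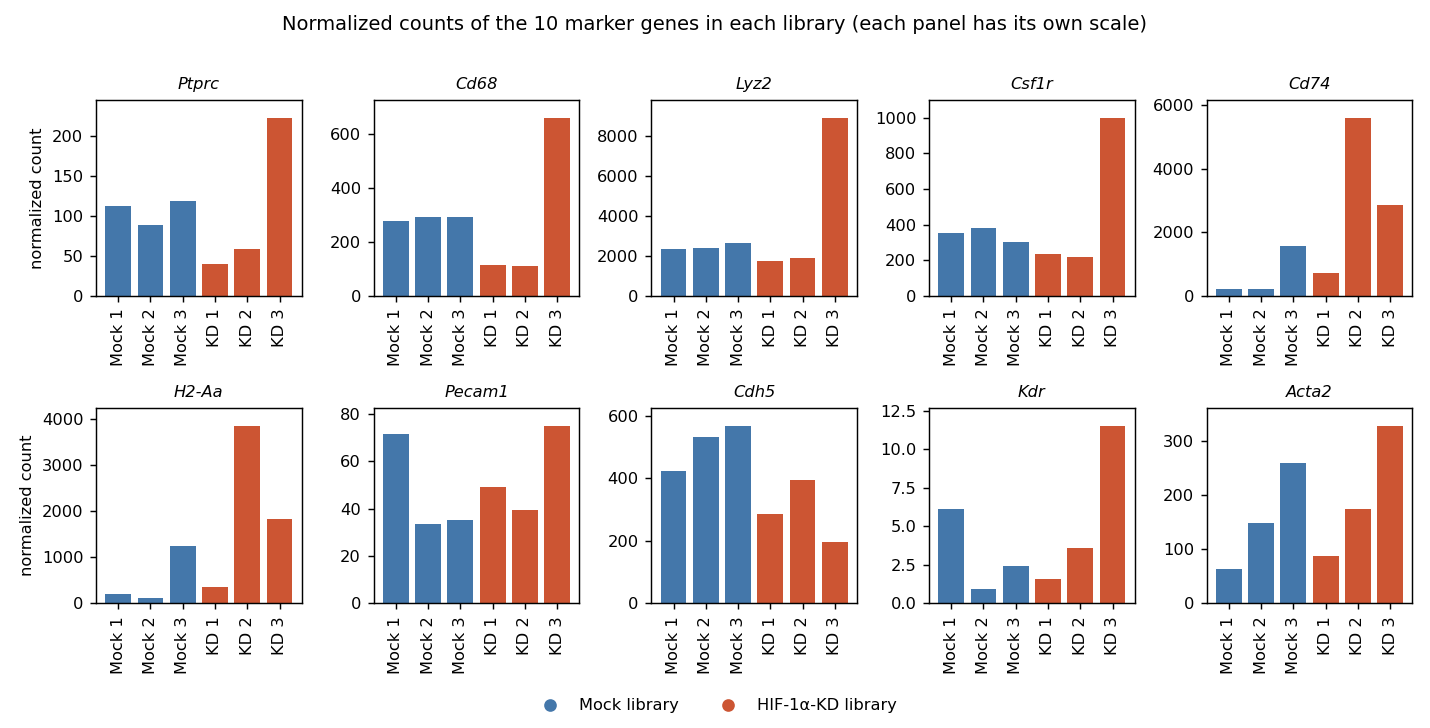
Normalized counts (vertical axis, a scale of its own in each panel, from 0) of the 10 marker genes in the 3 Mock and 3 HIF-1α-KD (KD) libraries, 1 bar per library. Ptprc, Cd68, Lyz2 and Csf1r are highest in HIF-1α-KD replicate 3, Cd74 and H2-Aa in HIF-1α-KD replicate 2, and each HIF-1α-KD bar of Cdh5 is below each Mock bar.

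Ptprc (ENSMUSG00000026395, GRCm38 chromosome 1, 138062861 to 138175708, minus strand) stood at 112, 89.0 and 118.4 normalized counts in Mock against 40.2, 58.8 and 222.9 in HIF-1α-KD libraries. HIF-1α-KD replicates 1 and 2 lay below all Mock libraries and replicate 3 above all of them. The group means were therefore close, 106 ± 15.5 (SD, n = 3) in Mock against 107 ± 101 (SD, n = 3) in HIF-1α-KD libraries, with an SD in the second group nearly as large as its mean. The log2 fold change was -0.38 (95% interval -1.66 to 0.90, limma adjusted p = 0.816). In bulk RNA, fewer cells of a type and less RNA per cell cannot be told apart.

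Cd68 (ENSMUSG00000018774, chromosome 11, 69664213 to 69666153, minus strand) encodes a glycoprotein of macrophage lysosomes. It stood at 278.2, 292.8 and 289.9 normalized counts in Mock against 112.6, 111.5 and 657.3 in HIF-1α-KD libraries. The Mock libraries lay within a narrow band, and none of the HIF-1α-KD libraries fell in it. The means were 287 ± 7.73 (SD, n = 3) and 294 ± 315 (SD, n = 3), and the log2 fold change was -0.50 (95% interval -1.87 to 0.87, limma adjusted p = 0.770).

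Lyz2 (ENSMUSG00000069516, chromosome 10, 117277331 to 117282321, minus strand) encodes lysozyme of macrophages, monocytes and granulocytes, and it has a close copy, Lyz1, with which it can share reads. The Mock libraries held 2345, 2369 and 2615 normalized counts of it, against 1715, 1902 and 8877 in HIF-1α-KD libraries. Again the same replicate was highest and the other HIF-1α-KD libraries were lower than Mock, by a smaller margin than for Cd68. Csf1r (ENSMUSG00000024621, chromosome 18, 61100598 to 61132149, plus strand), the receptor through which macrophages receive their survival factor, stood at 354.5, 381.8 and 299.6 normalized counts in Mock against 237.3, 220.6 and 998 in HIF-1α-KD libraries. The log2 fold changes were 0.33 for Lyz2 (95% interval -0.89 to 1.55) and 0.12 for Csf1r (95% interval -1.04 to 1.29), with limma adjusted p-values of 0.831 and 0.941.

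The value of these 4 genes therefore turned on HIF-1α-KD replicate 3. Without it, the log2 fold change was -1.10 for Ptprc (limma adjusted p = 0.273), -1.35 for Cd68 (limma adjusted p = 0.0688), -0.43 for Lyz2 (limma adjusted p = 0.378) and -0.58 for Csf1r (limma adjusted p = 0.385). The directions of Lyz2 and Csf1r turned, and that of Ptprc turned in another fit, to 0.12 without HIF-1α-KD replicate 1. That of Cd68 was near 0 in the tests on recovered reads, 0.0121 in edgeR and 0.0264 in DESeq2. None of the 4 reached an adjusted p-value under 0.05 in either fit.

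Most other genes of the same cells were highest in the same library as these 4. Of 17 macrophage and monocyte genes, 16 were tested and 14 of these (87.5%) were highest in HIF-1α-KD replicate 3, where 18.4% of all tested genes had their highest value. C1qa, C1qb and C1qc encode the chains of complement C1q, which tissue macrophages make. C1qa had 23.9, 27.1 and 29.7 FPKM in Mock and 10.99, 14.6 and 68.5 FPKM in HIF-1α-KD libraries, and C1qb had 23.5, 29.3 and 27.4 FPKM against 12.0, 14.8 and 74.6 FPKM. Ctss, a lysosomal protease that trims class II ligands, had 42.2, 31.7 and 32.0 FPKM in Mock and 13.8, 25.1 and 84.5 FPKM in HIF-1α-KD libraries. The summed level of the list was between 201 and 209 FPKM in Mock libraries and was 113, 137 and 455 FPKM in HIF-1α-KD libraries.

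At an unadjusted p below 0.05 together with a fold change of 1.5 or more, a criterion met by 7.48% of the 12014 genes tested, 1 of the 16 macrophage and monocyte genes was higher (Ccr2, a chemokine receptor of monocytes, at under 1 FPKM in every library) and 0 were lower. The median log2 fold change of the list was -0.18, beside 0.02 over all genes. Without HIF-1α-KD replicate 3, 9 of the 16 met the criterion as lower and 1 as higher, 15 had a log2 fold change below 0, and the median was -0.88, whereas 8.89% of all genes met the criterion, 4.79% as lower. None of the 16 had a limma adjusted p-value under 0.05 in either fit. With all libraries 2 of the 16 had an unadjusted p-value under 0.05, beside 12.7% of all genes.

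Of the pan-leukocyte genes, 8 of 10 were highest in HIF-1α-KD replicate 3, as 18.4% of all tested genes were. The summed level of the list was between 88.5 and 101 FPKM in Mock and was 60.7, 74.5 and 186 FPKM in HIF-1α-KD libraries. Laptm5, a lysosomal membrane protein of blood cells, had 20.6, 24.4 and 25.3 FPKM in Mock and 15.2, 13.2 and 58.0 FPKM in HIF-1α-KD libraries. Lcp1, the actin-bundling protein L-plastin, had 10.8, 10.4 and 9.86 FPKM against 6.37, 6.08 and 29.7 FPKM. With all libraries 1 of the 10 met the criterion as higher (Ptpn6) and 0 as lower, beside 4.02% and 3.46% of all genes. Without HIF-1α-KD replicate 3, 4 of the 10 met it as lower and 0 as higher, beside 4.79% and 4.10% of all genes. The median log2 fold change was then -0.71, beside 0.02 over all genes. None of the 10 had a limma adjusted p-value under 0.05 in either fit.

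Ptprc itself varied 5.54-fold from the lowest to the highest library, and part of these genes varied with it. Over the 27 genes of the macrophage and pan-leukocyte lists, the ratio to Ptprc ranged between 1.32-fold (Fcer1g) and 8.79-fold (Ptpn6) from its lowest to its highest library, with a median of 1.98-fold, and 14 of the 27 stayed under 2-fold. Per normalized count of Ptprc, C1qa had between 5.68 and 7.60 counts, a 1.34-fold range over the 6 libraries, and the range was 1.48-fold for C1qb, 1.56-fold for C1qc, 1.48-fold for Ctss, 1.72-fold for Itgam and 1.98-fold for Laptm5. It was wide for Cd37 (5.46-fold) and Mertk (6.64-fold). Among the markers, the ratio to Ptprc ranged 1.73-fold for Cd68 (1.90 to 3.29), 2.04-fold for Lyz2 (20.9 to 42.6) and 2.33-fold for Csf1r (2.53 to 5.90). The ratio of Lyz2 was 20.9, 26.6 and 22.1 in Mock against 42.6, 32.4 and 39.8 in HIF-1α-KD libraries, without overlap, so Lyz2 was higher relative to Ptprc in each HIF-1α-KD library. This ratio was singled out after its values were seen and was given no test. Ratios of counts are not per length and compare libraries, not genes.

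Some genes of the leukocyte lists did not take part. Mertk, a receptor for dying cells, was the most abundant of the macrophage list with 40.5, 45.3 and 40.2 FPKM in Mock and 37.5, 35.3 and 32.7 FPKM in HIF-1α-KD libraries, and it was lowest in the replicate in which Cd68 was highest. Itgb2, the beta chain of leukocyte integrins, had 28.7, 37.1 and 38.5 FPKM in Mock and 12.5, 29.2 and 36.2 FPKM in HIF-1α-KD libraries, so its highest library was Mock replicate 3.

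**Figure D2:**
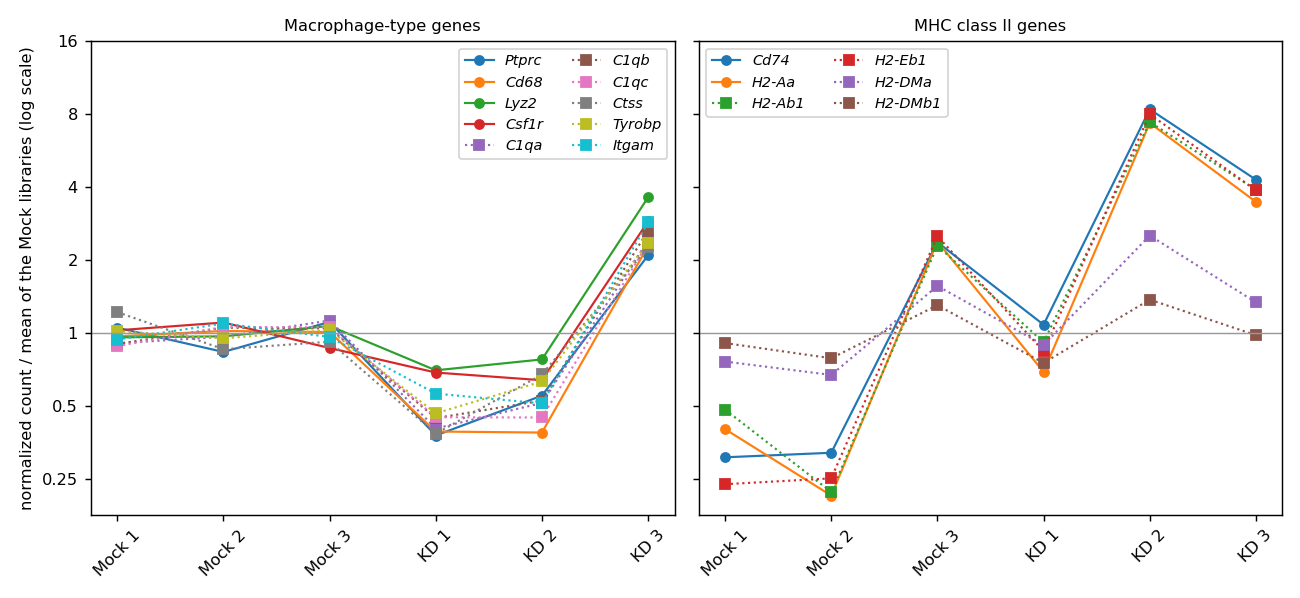
Normalized count of each gene in each library divided by its mean over the 3 Mock libraries (log scale), for macrophage-type genes (left) and MHC class II genes (right). Lines join the points of a gene and stand for no order of the libraries. The macrophage-type genes drawn were picked, and they lie below 1 in HIF-1α-KD (KD) replicates 1 and 2 and above 2 in replicate 3, which others of the list that are not drawn (Mertk, Cd14, Ccr2 and Aif1) did not, whereas Cd74, H2-Aa, H2-Ab1 and H2-Eb1 are highest in HIF-1α-KD replicate 2.

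The class II markers followed another order of the libraries. Cd74 (ENSMUSG00000024610, chromosome 18, 60803848 to 60812652, plus strand), the invariant chain that guides class II molecules to the compartment where peptides are loaded, stood at 204.4, 213.4 and 1579 normalized counts in Mock against 720.7, 5585 and 2860 in HIF-1α-KD libraries. H2-Aa (ENSMUSG00000036594, chromosome 17, 34282744 to 34287823, minus strand), the alpha chain of the class II molecule I-A, stood at 210.5, 112 and 1251 against 362.7, 3862 and 1826 normalized counts. Both genes were highest in HIF-1α-KD replicate 2, then in replicate 3, then in Mock replicate 3, and both groups overlapped. They ranged 27.3-fold and 34.5-fold over the libraries, more widely than any other tested marker, the next being Cd68 at 5.90-fold.

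The log2 fold change of Cd74 was 2.46 (standard error 0.89, 95% interval 0.42 to 4.49, limma unadjusted p = 0.0232, adjusted p = 0.333). For H2-Aa it was 2.14 (standard error 0.99, 95% interval -0.11 to 4.40, limma unadjusted p = 0.0602, adjusted p = 0.412). Leaving out 1 library at a time gave values between 1.80 and 3.43 for Cd74 and between 1.39 and 3.15 for H2-Aa, the lowest of each without HIF-1α-KD replicate 2 and the highest without Mock replicate 3. Cd74 met the criterion of unadjusted p and fold with all libraries, and did not without Mock replicate 1, Mock replicate 2, HIF-1α-KD replicate 2 or HIF-1α-KD replicate 3.

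Class II genes did not keep a ratio to Ptprc. Per normalized count of Ptprc, Cd74 had between 1.83 and 95.1 counts and H2-Aa between 1.26 and 65.7 counts, ranges of 52.1-fold and 52.2-fold, with the highest value of both in HIF-1α-KD replicate 2. Against each other, the ratio of Cd74 to H2-Aa stayed between 0.971 and 1.99. Over the 6 libraries, log2 values of Cd74 and H2-Aa had a Pearson correlation of 0.98, whereas those of Cd74 and Ptprc had one of 0.07 and those of Cd68 and H2-Aa one of -0.06. These are descriptions of 6 libraries that share 2 groups.

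H2-Ab1 and H2-Eb1 had the same 3 libraries highest in the same order, and Ciita shared the first and second of them. H2-Ab1, the beta chain of I-A, had 6.24, 3.05 and 29.8 FPKM in Mock and 12.2, 103.4 and 54.6 FPKM in HIF-1α-KD libraries. H2-Eb1, the beta chain of I-E, had 2.03, 2.30 and 21.6 FPKM in Mock and 7.45, 73.8 and 35.9 FPKM in HIF-1α-KD libraries. Ciita, the coactivator that class II promoters require, was low, with 0, 0.0228 and 0.126 FPKM in Mock and 0.142, 0.845 and 0.269 FPKM in HIF-1α-KD libraries, which did not overlap. HIF-1α-KD replicate 1 was its next highest library.

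Of 8 class II genes besides the markers, 6 were tested. Ciita, with 0, 3 and 14 reads in Mock and 23, 88 and 29 reads in HIF-1α-KD libraries, was kept by the filter on low counts through the group in which it is high, so its test is left aside. The other 5 were all highest in HIF-1α-KD replicate 2, where 11.9% of all tested genes had their highest value. Of these 5, H2-Ab1 and H2-Eb1 met the criterion of unadjusted p and fold as higher (limma adjusted p = 0.379 for both), as 4.02% of all genes did, and 0 met it as lower. Without HIF-1α-KD replicate 3 neither met it (limma unadjusted p = 0.0846 and 0.0828), and H2-Oa was the 1 of these 5 that did, as higher, beside 4.10% of all genes. H2-DMa and H2-DMb1, the chains of the peptide editor H2-M, varied less: H2-DMa had between 15.5 and 58.7 FPKM and H2-DMb1, whose reads can be shared with its copy H2-DMb2, between 26.6 and 50.5 FPKM. H2-DMb1 was the most abundant class II gene outside the markers in Mock replicates 1 and 2, where Cd74 had 6.04 and 6.73 FPKM and H2-DMb1 had 31.0 and 28.7 FPKM.

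Class II promoters are known for a shared set of short boxes, on which the complex that binds Ciita assembles, and the sequences below are shown because H2-Aa and H2-Eb1 moved together across libraries, with H2-DMb1, which varied less, for comparison. They are the 150 bases before the start of each gene in RefSeq (GRCm38.p6), written 5′ to 3′ on the strand of the gene. Capitals mark matches to the Y box (CTGATTGG), the core of the X box (AACTGATGA) or the X2 box (TGACGTCA), letters that were chosen after the sequences were seen and searched on both strands of the 250 bases before the start.
H2-Aa, chr17:34287824-34287973, minus strand: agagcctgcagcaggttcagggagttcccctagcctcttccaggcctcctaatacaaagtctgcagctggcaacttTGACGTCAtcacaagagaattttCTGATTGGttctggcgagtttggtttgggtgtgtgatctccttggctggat
H2-Eb1, chr17:34305717-34305866, plus strand: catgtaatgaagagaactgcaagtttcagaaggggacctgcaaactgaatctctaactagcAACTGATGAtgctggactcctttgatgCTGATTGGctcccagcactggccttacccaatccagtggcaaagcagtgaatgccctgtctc
H2-DMb1, chr17:34153041-34153190, plus strand: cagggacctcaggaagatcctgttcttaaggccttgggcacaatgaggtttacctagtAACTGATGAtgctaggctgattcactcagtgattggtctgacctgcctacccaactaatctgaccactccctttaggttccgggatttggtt

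In these windows the Y box began 51 bases before the start in H2-Aa and 62 bases before it in H2-Eb1. The X box core began 89 bases before the start in H2-Eb1 and 92 bases before it in H2-DMb1, and the X2 box 74 bases before it in H2-Aa. The Y box was in 3 of the 7 class II genes with a promoter entry (H2-Aa, H2-Eb1 and H2-Oa) and in 3.83% of the 32851 promoters searched. The X box core was in 2 of the 7 (H2-Eb1 and H2-DMb1) and in 0.231% of the promoters, and the X2 box in H2-Aa and in 1.55% of them. H2-Aa and H2-Eb1 thus each held 2 of the 3 boxes. Of the 10 markers 6 had a promoter entry, and the windows of Ptprc, Cd68, Lyz2, Kdr and Acta2 held none of the 3 sets of letters. Since the letters were chosen after these sequences were seen, setting class II genes beside all promoters is no test. Only exact matches were counted, and near ones, such as gtgattgg in H2-DMb1, were not. A match is a description of the sequence, and binding was not measured here.

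Pecam1 (ENSMUSG00000020717, chromosome 11, 106654217 to 106750628, minus strand) stood at 71.4, 33.5 and 35.0 normalized counts in Mock against 49.1, 39.6 and 75.1 in HIF-1α-KD libraries. The groups overlapped, and the log2 fold change was 0.26 (95% interval -0.69 to 1.21, limma adjusted p = 0.830). These values rest on 58, 35 and 29 reads in Mock and on 61, 33 and 65 reads in HIF-1α-KD libraries. The gene is also active in platelets and some leukocytes, and its ratio to Ptprc ranged 4.12-fold over the libraries.

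Kdr (ENSMUSG00000062960, chromosome 5, 75932827 to 75978458, minus strand) was at the edge of detection, with 5, 1 and 2 reads in Mock and 2, 3 and 10 reads in HIF-1α-KD libraries. The exact Poisson interval was 4.80 to 18.4 reads for the highest library and 0.0253 to 5.57 reads for the lowest (95%, counting error only). Kdr was the only marker not kept by the filter on low counts and was not tested.

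Cdh5 (ENSMUSG00000031871, chromosome 8, 104101625 to 104144511, plus strand) stood at 422.3, 532.1 and 568.9 normalized counts in Mock against 285.5, 395.7 and 197.5 in HIF-1α-KD libraries. The highest HIF-1α-KD library was under the lowest Mock library. The mean was 508 ± 76.3 (SD, n = 3) in Mock against 293 ± 99.3 (SD, n = 3) in HIF-1α-KD libraries. On the log2 scale the difference was -0.84 (standard error 0.27, 95% interval -1.45 to -0.23, limma unadjusted p = 0.0130, adjusted p = 0.294). Leaving out 1 library at a time gave values between -1.08 and -0.58. The smallest in size was that without HIF-1α-KD replicate 3, the library with the fewest Cdh5 counts, where the criterion on fold was no longer met. Cdh5 was the 1 of 9 tested markers whose groups did not overlap, and the groups did not overlap for 19.2% of all genes tested, 8.75% with HIF-1α-KD lower.

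Most endothelial genes beside Cdh5 were near 0 in these libraries, and a few were at its level or above. Cdh5 had between 2.09 and 5.58 FPKM and was above Pecam1 in FPKM in all 6 libraries. Cldn5, the claudin of endothelial tight junctions, had reads in Mock replicate 2 alone, at 0.0283 FPKM, and Sox17, a transcription factor of arterial endothelium, in HIF-1α-KD replicate 3 alone, at 0.0283 FPKM. Tie1, Erg, Emcn and Ptprb had at most 0.0761 FPKM in any library. Of 18 endothelial genes besides the markers, 14 had a mean under 1 FPKM and 11 a mean under 0.1 FPKM, and 7 were tested. Over the libraries Cdh5 was lowest where Cd68 was highest, and its ratio to Ptprc ranged 8.01-fold, from 0.886 in HIF-1α-KD replicate 3 to 7.10 in HIF-1α-KD replicate 1.

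The endothelial genes of the list with the highest means, apart from the markers, were Flt1, Egfl7 and Eng. Flt1, a receptor of vascular endothelial growth factor that macrophages and other cells can carry too, had 3.02, 6.10 and 13.7 FPKM in Mock and 12.7, 12.8 and 19.5 FPKM in HIF-1α-KD libraries. It was the 1 endothelial gene of the list that met the criterion of unadjusted p and fold as higher (log2 fold change 1.16, limma adjusted p = 0.375), with an overlap of the groups. As lower 0 met it, and of all genes 4.02% met it as higher and 3.46% as lower. Egfl7, a secreted factor of vessels, was even over the libraries, between 3.99 and 5.01 FPKM. Eng, a co-receptor of the TGF-beta family, had 1.83, 3.08 and 2.39 FPKM in Mock and 2.59, 4.78 and 5.07 FPKM in HIF-1α-KD libraries. Without HIF-1α-KD replicate 3, 0 of the 7 endothelial genes tested met the criterion, beside 8.89% of all genes. Of the 7, Tek and Plvap reached the minimum of the filter on low counts in 1 Mock library each. They were thus kept largely through the HIF-1α-KD libraries, where they are higher.

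**Figure D3:**
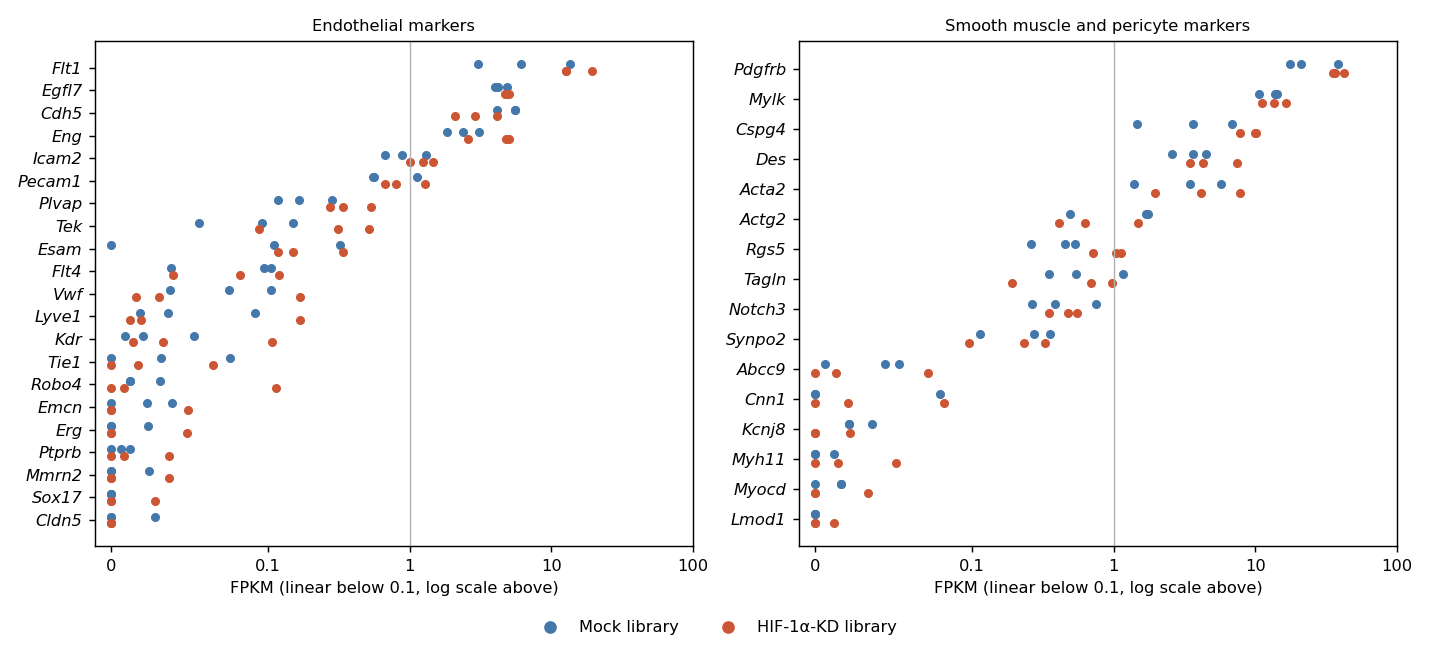
FPKM (horizontal axis, linear below 0.1 and logarithmic above) of endothelial genes (left) and smooth muscle and pericyte genes (right), 1 point per library in Mock (blue) and HIF-1α-KD (orange), with genes ordered by their mean and a grey line at 1. Cdh5 lies between 2.09 and 5.58 whereas Kdr stays at or below 0.107, and Acta2 lies between 1.40 and 7.80 whereas Myh11 stays at or below 0.0514.

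Acta2 (ENSMUSG00000035783, chromosome 19, 34241090 to 34255590, minus strand) stood at 64.0, 148.3 and 259.7 normalized counts in Mock against 86.9, 173.9 and 329.2 in HIF-1α-KD libraries. The groups overlapped. The log2 fold change was 0.33 (95% interval -0.99 to 1.66, limma adjusted p = 0.840), and it turned to -0.20 without Mock replicate 1 and to -0.14 without HIF-1α-KD replicate 3.

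The contractile genes of smooth muscle were unequal, some close to 0 and others at or above Acta2. Myh11, smooth muscle myosin, had at most 0.0514 FPKM, Cnn1, calponin, at most 0.0822 FPKM, and Lmod1 reads in HIF-1α-KD replicate 3 alone. Tagln, an actin-binding protein shared by smooth muscle and activated fibroblasts, had between 0.190 and 1.16 FPKM, and Actg2, the gamma actin of gut muscle, between 0.411 and 1.75 FPKM. Des, desmin, had between 2.60 and 7.41 FPKM, around the level of Acta2. Of 15 smooth muscle and pericyte genes besides Acta2, 10 had a mean under 1 FPKM and 6 a mean under 0.1 FPKM, and 9 were tested.

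The highest of this list were Pdgfrb, Mylk and Cspg4. Pdgfrb, a receptor of platelet-derived growth factor on pericytes and fibroblasts, had 17.5, 38.6 and 21.1 FPKM in Mock and 42.3, 36.5 and 35.3 FPKM in HIF-1α-KD libraries. Cspg4, the proteoglycan NG2, had 1.46, 3.63 and 6.89 FPKM in Mock and 10.2, 9.95 and 7.80 FPKM in HIF-1α-KD libraries. Its groups did not overlap, as for 10.4% of all genes with HIF-1α-KD higher. Mylk, myosin light chain kinase, lay between 10.6 and 16.6 FPKM over all libraries. Pdgfrb, Cspg4 and Rgs5 met the criterion of unadjusted p and fold as higher (3 of 9 tested, limma adjusted p between 0.296 and 0.387). As lower 0 met it, and of all genes 4.02% met it as higher and 3.46% as lower. Without HIF-1α-KD replicate 3, Pdgfrb no longer met it (limma unadjusted p = 0.0573) and 2 of 9 did as higher, beside 4.10% of all genes. Pericyte genes that code for the potassium channel of these cells, Kcnj8 and Abcc9, had at most 0.0364 and 0.0718 FPKM.

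Of 13 fibroblast genes, some were among the most abundant and others low. Col3a1 had between 1400 and 4603 FPKM, Col1a1 between 215.7 and 4222 FPKM and Dcn, which encodes decorin, between 344.9 and 905.9 FPKM. Col1a1 and Col3a1 met the criterion as higher (2 of 11 tested, limma adjusted p = 0.287 and 0.206), as 4.02% of all genes did, and 0 met it as lower. The groups did not overlap for either, as for 10.4% of all genes with HIF-1α-KD higher. Pdgfra, a growth factor receptor of fibroblasts, had between 19.6 and 48.4 FPKM, Lum between 4.49 and 30.7 FPKM and Fap between 0.260 and 3.93 FPKM, and 4 of the 13 had a mean under 1 FPKM. Thy1 and Pi16 had at most 0.408 and 0.222 FPKM. Whether tumor cells or host cells gave these transcripts was not tested.

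T cell, NK cell and mast cell genes were low or without reads, whereas some B cell genes were not. All 13 T and NK cell genes had a mean under 1 FPKM and 10 a mean under 0.1 FPKM, Ncr1 had no read, and Cd3e, a chain of the T cell receptor complex, had at most 0.0667 FPKM. Cd3d and Cd4 had at most 0.302 and 0.409 FPKM. The highest of them, Lck, a kinase of T cells, had 0.295, 0.629 and 0.207 FPKM in Mock and 1.196, 1.24 and 0.897 FPKM in HIF-1α-KD libraries. It was the 1 gene of the list kept by the filter on low counts, with 7, 18 and 5 reads in Mock and 42, 28 and 21 reads in HIF-1α-KD libraries. Only 1 Mock library reached the minimum of that filter, so Lck was kept through the group in which it is high and its difference is given as values alone. Of the mast cell list, 4 of 5 genes had no read (Cpa3 and Mcpt4 among them), Kit had at most 0.262 FPKM, and none was tested. Among B and plasma cell genes, 7 of 8 were in the table and 3 were tested with 0 past the criterion, beside 7.48% of all genes. Cd79a had between 3.44 and 9.01 FPKM, Pax5 between 0.888 and 4.29 FPKM and Ighm at most 0.761 FPKM.

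Most neutrophil and dendritic cell genes had a mean under 1 FPKM. S100a9 and S100a8, abundant calcium-binding proteins of neutrophils, had between 0.566 and 4.53 FPKM and between 0.462 and 2.57 FPKM, and both were highest in HIF-1α-KD replicate 3, as was Csf3r, with between 0.158 and 1.13 FPKM. Of the neutrophil list, 3 of 8 genes were tested, and all 3 were highest in that replicate, as 18.4% of all tested genes were. The criterion was met by 0 of the 3, beside 7.48% of all genes. Zbtb46, a transcription factor of dendritic cells and endothelium, had between 3.45 and 5.52 FPKM, beside Flt3, the receptor for the dendritic cell growth factor, with at most 0.0353 FPKM and Siglech with no read. Of 8 dendritic cell genes, 7 had a mean under 1 FPKM and 3 were tested. Ccr7, a chemokine receptor, was the 1 of these 3 that met the criterion, as higher, beside 4.02% of all genes. It had 0.364, 0.443 and 0.334 FPKM in Mock and 1.41, 1.07 and 0.541 FPKM in HIF-1α-KD libraries. Itgax, an integrin of dendritic cells and macrophages, had between 0.161 and 1.64 FPKM. Xcr1, Clec9a and Cd209a, which mark conventional dendritic cells, had at most 0.0658 FPKM.

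Hemoglobin genes were lowest in HIF-1α-KD replicates 1 and 2. Hbb-bs, a beta chain of hemoglobin, had 56.6, 22.8 and 49.7 FPKM in Mock and 5.62, 0 and 24.4 FPKM in HIF-1α-KD libraries. Hba-a1, an alpha chain, had 13.7, 9.30 and 14.8 FPKM in Mock and 1.42, 0.0845 and 6.94 FPKM in HIF-1α-KD libraries. Of 8 erythroid and platelet genes, 6 were tested and none had a limma adjusted p-value under 0.05. For 5 of the 6 (Hbb-bs, Hbb-bt, Hba-a1, Hba-a2 and Alas2, the first enzyme of heme synthesis in erythroid cells), 1 or 2 of the HIF-1α-KD libraries reached the minimum of the filter on low counts. These were thus kept through the Mock libraries, where they are high, and their differences are given as values alone. Hba-a1 and Hba-a2, and likewise Hbb-bs and Hbb-bt, are near-identical copies between which reads can be split, so the value of each single gene is uncertain. Within the HIF-1α-KD group Hbb-bs and Hba-a1 were highest in replicate 3, as Ptprc was. They were lowest there in replicate 2, whereas Ptprc was lowest in replicate 1. In Mock all of these were lowest in replicate 2. Over all libraries Ptprc was highest in HIF-1α-KD replicate 3, whereas Hbb-bs was highest in Mock replicate 1 and Hba-a1 in Mock replicate 3.

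The remaining lists concern cells of the cecum wall. Msln, a mesothelial surface protein that some carcinomas carry as well, had 86.6, 58.7 and 76.5 FPKM in Mock and 5.45, 20.6 and 34.2 FPKM in HIF-1α-KD libraries. Its groups did not overlap (log2 fold change -2.27, limma adjusted p = 0.210), as for 8.75% of all genes with HIF-1α-KD lower. The other 3 mesothelial genes, Lrrn4 and Wt1 among them, had a mean under 0.1 FPKM. Sox10, a transcription factor of enteric glia, had at most 0.149 FPKM. In the cecal epithelium and the glia and neuron lists, 2 genes each were tested. Cdh17, an intestinal cadherin, had 76, 47 and 117 reads in Mock and 4, 25 and 22 reads in HIF-1α-KD libraries, and Uchl1, a ubiquitin hydrolase of neurons, had 5, 8 and 3 against 16, 24 and 22 reads. Not every library of the lower group reached the minimum of the filter for these 2 genes, so they too were kept through the group in which they are high and are given as values alone. Of 7 housekeeping genes, the most abundant were Eef1a1, Rplp0 and Rps12, with 11620 to 22210, 4139 to 6260 and 3684 to 6243 FPKM. Of these 7, 3 met the criterion as lower and 0 as higher, beside 3.46% of all genes as lower, and the groups did not overlap for 5, beside 19.2% of all genes. All 7 had a log2 fold change below 0 (median -0.42), and 6 did when libraries were scaled by their total reads (median -0.37).

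Between HIF-1α-KD and Mock cells, none of the 9 markers tested had a limma adjusted p-value under 0.05, which 0.391% of all 12014 genes tested had. The count of markers was 0 in edgeR and in DESeq2 too, and 2 of 9 had an unadjusted p-value under 0.05 in limma, beside 12.7% of all genes. By the criterion of unadjusted p and fold, 2 of 9 markers differed, Cd74 as higher and Cdh5 as lower, where 7.48% of all genes did, 4.02% as higher and 3.46% as lower. The median log2 fold change of the 9 was 0.26, beside 0.02 over all genes, with 6 above 0 and 3 below. Without HIF-1α-KD replicate 3 the 2 markers past the criterion were Ptprc and Cd68, both lower, and Cd74 and Cdh5 no longer met it, while 8.89% of all genes did. The log2 fold change of Cd74 was then 2.29 (limma unadjusted p = 0.0545) and that of Cdh5 -0.58 (limma unadjusted p = 0.0423), the second just under the limit on fold. In that fit 5 of the 9 markers had an unadjusted p-value under 0.05 (Ptprc, Cd68, Lyz2, Csf1r and Cdh5), all lower, beside 11.5% of all genes. Exact permutation of the group labels of 3 against 3 libraries has 0.1 as its smallest two-sided p.

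**Figure D4:**
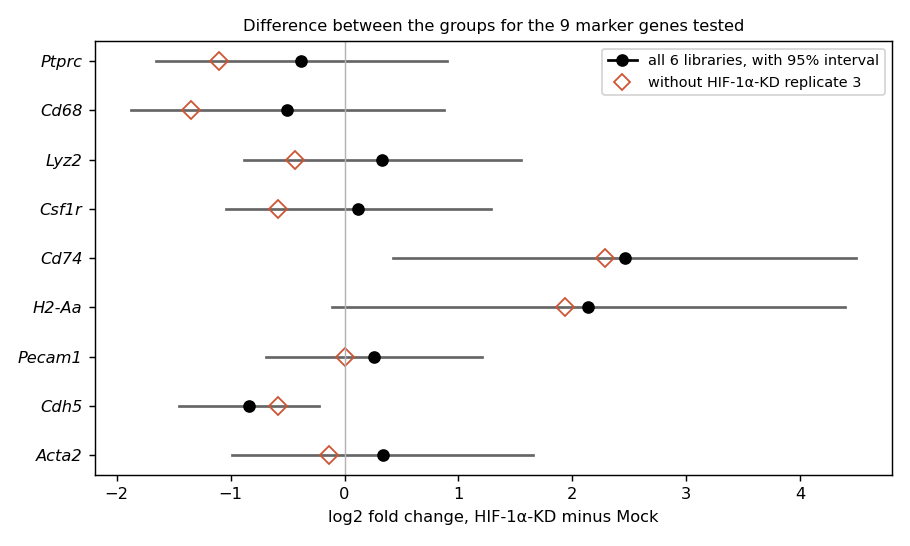
Log2 fold change (horizontal axis, HIF-1α-KD minus Mock) of the 9 markers tested, fitted on all 6 libraries (black, with the 95% interval) and without HIF-1α-KD replicate 3 (open diamonds). The intervals of Cd74 and Cdh5 leave out 0 before adjustment, and the diamonds of all markers but Cdh5, Ptprc, Cd68, Lyz2 and Csf1r among them, lie lower than the black points.

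The width of the intervals shows what these 6 libraries could resolve. The 95% interval of Ptprc reached from -1.66 to 0.90 and that of Cd68 from -1.87 to 0.87, so both included values well below 0 and values above it. For Cdh5 the interval was narrower, with a standard error of 0.27 against 0.56 for Ptprc and 0.99 for H2-Aa.

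Genes that varied over the 6 libraries most like each marker were taken from all tested genes by the Pearson correlation of log2 normalized counts, without p. For Ptprc these were Rgs2 (0.99), Gp49a (0.99) and Fcer1g (0.99), and for Cd68 they were Lrrc25 (1.00), Rnf150 (0.99) and C1qc (0.99). For Lyz2 they were Nexn, Pld4 and Tnfaip8l2 (each 0.99), and for Csf1r they were Ccnt2, Odf2 and Tbxas1 (each 0.99). Between 41 and 57 genes had a correlation above 0.95 with each of these 4 markers. Cd74 was followed by H2-Eb1 (1.00), Fzd8 (0.99) and Tomm5 (0.99), and H2-Aa by H2-Ab1 (1.00), Fam114a1 (0.99) and H2-Eb1 (0.98). The lists of Cd74 and H2-Aa thus both held H2-Eb1, from among 22 and 26 genes above 0.95.

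For the vessel markers, the genes most alike held no endothelial or smooth muscle gene of the lists. Cdh5 was closest to Snrnp25, Crip2 and Eif4ebp2 (correlations of 0.99, 0.99 and 0.98), Pecam1 to Fgfr1op2, Picalm and Pctp (0.99, 0.99 and 0.97) and Acta2 to Fam222b, Cox10 and Trim46 (0.99, 0.98 and 0.98). Cdh5 and Pecam1, both endothelial junction genes, had a correlation of -0.73 with each other. All these correlations rest on the same 6 libraries, which share their groups and depths.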

How the data were processed

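RNA of sorted MC-38GFP cells was measured in 3 Mock and 3 HIF-1α-KD libraries (poly-A selected, stranded, single-end), grouped by the knock-down in their labels. Per the labels and methods, the authors aligned reads with STAR, counted them with featureCounts and used DESeq2, and the labels also name edgeR. The methods name GRCh38, but the labels name GRCm38 and the gene identifiers are those of mouse in Ensembl. In the 1 deposited table, normalized counts are a signal, reads divided by 1 factor per library by the authors, and FPKM values were deposited per gene width and total reads. The deposited log2 ratio, p-value and false discovery rate hold the authors' own comparison and were not used. The deposited GC fraction and width describe each gene, and the width entered the FPKM alone.

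Whole reads were recovered from the normalized counts (100% of values up to 300 reads were whole within 0.1). Genes were kept by filterByExpr of edgeR 4.0.16 (minimum count of 10) on these reads, which left 12014. The main test was limma-trend (limma 3.58.1) on log2 (normalized count + 1), two-sided, with Benjamini-Hochberg adjustment over all genes, since the deposited unit is not a raw count. A fold change on this scale understates that of low genes. The edgeR quasi-likelihood test and the DESeq2 1.42.0 Wald test ran on recovered reads as alternatives, beside other scalings, pseudocounts (0.1 and 10), no filter, no trend, a replicate block and leaving out each library. Fits were tested on simulated data. The software was R 4.3.3 and Python 3.11.15 with matplotlib 3.10.9, scipy 1.17.1, numpy 2.4.6 and pandas 2.3.3.

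The markers and lists were chosen with earlier results of these data known. Named genes are the 10 markers, Hif1a, the 3 genes of each list with the highest mean FPKM, any list gene at an adjusted p-value under 0.05, and the 3 genes most correlated with each tested marker. Other genes named were chosen after their values were seen. Not every gene the rule gives is reported here. Positions are from GENCODE (GRCm38), matched by identifier for 22570 genes.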

Additional observations from a re-analysis of the deposited data

How the results depend on the processing

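None of the 9 tested markers had an adjusted p-value under 0.05 in any alternative run (the smallest was 0.0688, Cd68 without HIF-1α-KD replicate 3, limma). Of 126 marker values under the alternatives, 119 kept their direction and side of the threshold and 7 reversed. With a library left out, log2 fold changes lay between -1.10 and 0.12 (Ptprc), -0.43 and 0.75 (Lyz2), -0.58 and 0.50 (Csf1r) and -0.20 and 0.82 (Acta2). The reversals were Ptprc without HIF-1α-KD replicate 1 (0.12), Cd68 in edgeR (0.0121) and DESeq2 (0.0264), Lyz2 (-0.43) and Csf1r (-0.58) without HIF-1α-KD replicate 3, and Acta2 without Mock replicate 1 (-0.20) or HIF-1α-KD replicate 3 (-0.14). The number of markers past the criterion of unadjusted p and fold was 2, and it was 1 in DESeq2 (Cdh5), 3 without the filter on low counts (Cd74, H2-Aa and Cdh5) and between 1 and 3 with a library left out. Over all genes, 47 had an adjusted p-value under 0.05 in the main test, 283 in DESeq2, 1 in limma without trend (1397 at an unadjusted p-value under 0.05) and between 0 and 38 with a library left out, with 0 without Mock replicate 3 (1444 by unadjusted p) or HIF-1α-KD replicate 2 (1069 by unadjusted p). The cause was not tested. Other scaling moved the median of all genes by at most 0.05 on the log2 scale.

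With the replicate number as a block, 0 of all genes had a limma adjusted p-value under 0.05 (1324 at an unadjusted p-value under 0.05), and 3 markers met the criterion of unadjusted p and fold, Cd74, H2-Aa and Cdh5. The numbers were not taken as pairs: deviations from the group means of same-numbered libraries had correlations of -0.14, -0.12 and 0.02. Depth limits Kdr, with 1 to 10 reads per library, and the list genes at a few reads.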
